A study of Homo sapiens with 12 samples.

Results

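The genes described here are 34 genes of the lysosome and of autophagy, out of 21182 protein-coding rows in the deposited table. They are 20 genes of lysosomal enzymes, membrane proteins and the proton pump, 11 autophagy factors, and 3 transcription factors that act on both. A gene entered when the table held a protein-coding row under its symbol, and each of the 34 had exactly 1 such row. The lysosome is the acid compartment in which the cell breaks down proteins, lipids and sugar chains. In autophagy a double membrane closes around cytoplasm and then fuses with the lysosome, so that lysosomal enzymes digest the content. TFEB, TFE3 and MITF, the MiT/TFE family, bind E-box motifs in the promoters of many of these genes, and glioma cells are known to rely on lysosomes and autophagy under stress.

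RNA was sequenced from A172, an established human glioblastoma cell line labelled as wild type and adherent. The cells received siRNA-2 against uc.110, siRNA-1 against uc.110 or a scrambled control siRNA, with 4 libraries in each of the 3 groups. uc.110 is an ultraconserved region, a stretch of genome shared without a difference between distant mammals. All 3 groups had the same transfection, 3 µL of 20 µM siRNA with a lipid reagent for 6 hours, and RNA was collected at day 2 after it. The sources used here do not give the siRNA sequences. All libraries come from 1 cell line, and nothing in the labels names separate cultures as the origin of the 4 libraries of a group, so the p-values cover the spread between these samples alone, which may be technical.

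The libraries held 42791787 to 52962307 reads in the gene intervals used. The share of 45S ribosomal RNA was 1.73% to 5.36% of gene reads in 10 libraries, 9.37% in siRNA-2 replicate 2 and 17.6% in siRNA-1 replicate 3. Scrambled replicate 1 had 1556 intervals with reads in no other library, against 86 to 167 in each of the others. The targeted region itself, chr2:236162738-236162980, held 3, 0, 4 and 0 reads with siRNA-2, 2, 0, 1 and 2 with siRNA-1, and 4, 0, 1 and 6 with scrambled siRNA, too few to show a knockdown at this depth. Of the glioma and astroglial markers, VIM, NES, CD44 and EGFR were each above 150 CPM in every library, and SOX9 lay at 112 to 170 CPM. GFAP was low, at 5.81 to 8.95 CPM, as was CHI3L1, at 3.22 to 9.73 CPM, and S100B held 1 read in all. CPM is the read count scaled to the TMM-adjusted library size. All 17 genes of a type I interferon list were higher with siRNA-2 (summed 6068 to 6611 CPM) and with siRNA-1 (4723 to 5000 CPM) than with scrambled siRNA (796 to 1812 CPM). Scrambled replicate 1 was the highest scrambled library for all 17. For the 32 genes tested below it was the highest for 3, namely CTSL, CTSS and ULK1.

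For 2 of the 34 genes the deposited interval was far longer than the gene and gives no value for it. The interval of NEU1, the lysosomal sialidase, ran over 28757496 bases of chromosome 6, and that of ATG16L1, which directs the autophagy conjugation complex to membranes, over 233098664 bases of chromosome 2. The other 32 all passed the filter on low counts. With siRNA-2, edgeR's quasi-likelihood test at a Benjamini-Hochberg adjusted p below 0.05 called 9 of the 32 higher and 7 lower than with scrambled siRNA. Over all 24953 intervals tested the same call was made for 29.9% higher and 26.1% lower, and over protein-coding genes alone for 35.1% and 30.5%. With siRNA-1, 16 of the 32 were called higher and 5 lower, against 28.5% and 24.8% of all intervals and 35% and 28% of protein-coding genes. In 12 of the 32 all siRNA-2 libraries lay above all scrambled ones and in 7 below them, against 27.7% and 24% of all intervals, and for siRNA-1 in 12 and 5, against 25.2% and 22.2%. A large share of this table differs between groups, so a call in itself does not set these genes apart. The median log2 fold change of the 32 was 0.05 with siRNA-2 and 0.09 with siRNA-1, against 0.01 over all genes in both. Both comparisons use the same 4 scrambled libraries, so they are given side by side and not as support for each other. These are bulk samples, in which fewer cells of a type and less RNA per cell cannot be told apart.

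By class, the counts stood as follows, and the difference between the classes was not tested. Of 19 lysosomal genes, 8 were higher and 1 lower with siRNA-2, and 11 were higher and 2 lower with siRNA-1. Of 10 autophagy factors, 1 was higher and 6 lower with siRNA-2, and 2 were higher and 3 lower with siRNA-1. The median log2 fold change of the lysosomal genes was 0.07 with siRNA-2 and 0.11 with siRNA-1, and that of the autophagy factors -0.13 with siRNA-2 and -0.06 with siRNA-1. Among all protein-coding genes 35.1% were higher and 30.5% lower with siRNA-2, and 35% and 28% with siRNA-1, so that 8 of 19 higher with siRNA-2 and 3 of 10 lower with siRNA-1 are near the share of that background. Without siRNA-2 replicate 1, or over protein-coding rows only, 5 autophagy factors were lower with siRNA-1. Leaving out 1 library at a time gave 8 to 11 lysosomal genes higher with siRNA-1 and 4 to 6 autophagy factors lower with siRNA-2. With siRNA-1, the calls of CTSD, LAMP1 and ATP6V0D1 were lost under 15, 16 and 14 of 20 alternatives. With siRNA-2, those of CTSA, BECN1 and ATG5 were lost under 15, 1 and 4. The reads of WIPI1, also among the 6 autophagy factors lower with siRNA-2, cannot be given to it alone. Among the genes whose interval overlaps no other tested one, 4 of 8 lysosomal genes were higher and 0 lower with siRNA-2, and 6 were higher and 1 lower with siRNA-1, while of 4 autophagy factors 1 was higher and 2 lower with siRNA-2, and 1 was higher and 1 lower with siRNA-1. Most of the changes were small. The range over the 32 genes was -1.28 to 0.89 with siRNA-2 and -0.83 to 0.82 with siRNA-1.

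**Figure D1:**
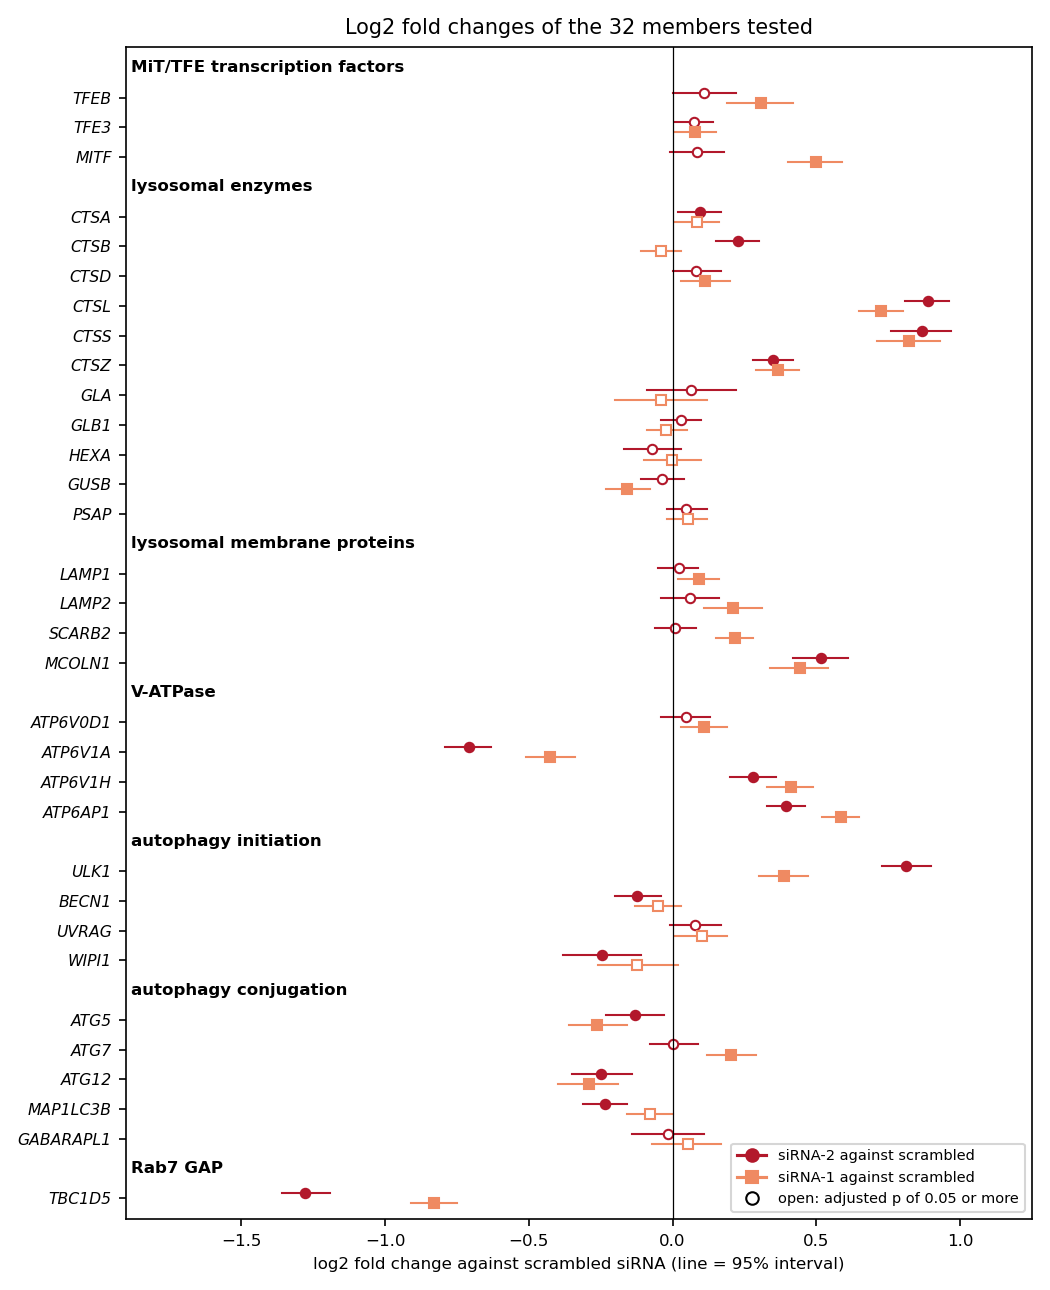
Log2 fold changes (x axis) of the 32 genes tested, by role (y axis), for siRNA-2 (circles) and siRNA-1 (squares) against scrambled siRNA. Lines are 95% intervals and open symbols have an adjusted p of 0.05 or more. CTSL, CTSS and ULK1 lie farthest to the right and TBC1D5 farthest to the left, at -1.28 with siRNA-2 and -0.83 with siRNA-1.

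MITF and TFEB, of the 3 MiT/TFE factors, rose with siRNA-1 and were lower with siRNA-2 than with siRNA-1. MITF, known as the master factor of pigment cells, had 34, 32.9, 33.5 and 33.5 CPM with siRNA-2, 41.4, 47.3, 47.2 and 42.6 CPM with siRNA-1, and 30.7, 30.5, 32 and 33.3 CPM with scrambled siRNA. All 4 siRNA-1 libraries were above all siRNA-2 and scrambled libraries. Its log2 fold change was 0.08 (SE 0.05, BH-adjusted p = 0.158) with siRNA-2, and it rose by 0.50 (SE 0.05, BH-adjusted p = 3.63e-09) with siRNA-1. TFEB, which moves to the nucleus when lysosomes are short of nutrients, had 20, 17.9, 18.4 and 18.7 CPM with siRNA-2, 20.8, 20.4, 21.5 and 23.3 CPM with siRNA-1, and 17.1, 18, 18.4 and 16.1 CPM with scrambled siRNA. It rose by 0.31 (SE 0.06, BH-adjusted p = 6.75e-05) with siRNA-1, where the groups did not overlap, and stood at 0.11 (SE 0.06, BH-adjusted p = 0.113) with siRNA-2. The difference between the siRNAs was itself past the threshold for both genes, with siRNA-2 against siRNA-1 log2 fold changes of -0.41 for MITF (BH-adjusted p = 3.12e-07) and -0.20 for TFEB (BH-adjusted p = 0.00885). TFE3 averaged 130 ± 2.32 CPM with siRNA-2, 131 ± 2.28 CPM with siRNA-1 and 124 ± 3.19 CPM with scrambled siRNA (SD, n = 4). Its log2 fold change was 0.07 (BH-adjusted p = 0.0658) with siRNA-2 and 0.08 (BH-adjusted p = 0.0495) with siRNA-1, a call lost under all 20 alternative settings. The direct difference of siRNA-2 from siRNA-1 was -0.01 (95% interval -0.07 to 0.06, BH-adjusted p = 0.922).

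The sequence these factors recognise was looked for in the promoters. RefSeq promoter windows (GRCh38.p14) were at hand for 26 of the 34 genes, and the 250 bases before the start were searched for the E-box CACGTG, which reads the same on both strands. It was present for 7 of 26 genes, 26.9%, namely CTSA, CTSD, NEU1, LAMP1, MCOLN1, ATP6V0D1 and TBC1D5. A gene with several windows was counted if any of them held it. For TBC1D5 it was in 1 window and absent from another. Over all 27305 genes of that table the share was 7.73%, and over its protein-coding genes 9.73%. The longer palindrome with GT before the E-box and AC after it, the core of the site described for TFEB in lysosomal genes, was in 1 of the 26 windows, that of MCOLN1, against 0.374% of all genes. A match describes letters in a window, not binding. The windows of 5 genes follow. LAMP1 and MCOLN1 are shown because they hold 5 and 2 copies of the E-box, CTSA and ATP6V0D1 as an enzyme and a pump gene with 2 and 1, and CTSL because it rose most with siRNA-2 among the 32 and holds none. They lie at chr19:7522374-7522623 (MCOLN1, plus strand), chr13:113296989-113297238 (LAMP1, plus), chr20:45891085-45891334 (CTSA, plus), chr16:67481158-67481407 (ATP6V0D1, minus) and chr9:87725869-87726118 (CTSL, plus), each 5′ to 3′ with the E-box in capitals.
MCOLN1: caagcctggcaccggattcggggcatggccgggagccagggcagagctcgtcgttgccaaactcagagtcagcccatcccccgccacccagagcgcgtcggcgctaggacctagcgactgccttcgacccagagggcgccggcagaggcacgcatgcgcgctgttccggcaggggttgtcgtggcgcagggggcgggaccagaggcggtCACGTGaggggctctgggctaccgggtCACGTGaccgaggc
LAMP1: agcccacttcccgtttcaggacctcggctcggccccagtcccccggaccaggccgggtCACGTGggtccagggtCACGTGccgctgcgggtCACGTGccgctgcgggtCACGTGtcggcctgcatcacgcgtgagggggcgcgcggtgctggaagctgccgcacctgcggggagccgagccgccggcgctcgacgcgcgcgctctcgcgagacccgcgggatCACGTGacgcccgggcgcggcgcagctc
CTSA: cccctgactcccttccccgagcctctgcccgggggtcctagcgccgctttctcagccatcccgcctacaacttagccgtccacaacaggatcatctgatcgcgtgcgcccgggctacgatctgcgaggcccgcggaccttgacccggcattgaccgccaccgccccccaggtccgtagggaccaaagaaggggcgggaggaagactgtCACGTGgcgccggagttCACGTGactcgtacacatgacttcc
ATP6V0D1: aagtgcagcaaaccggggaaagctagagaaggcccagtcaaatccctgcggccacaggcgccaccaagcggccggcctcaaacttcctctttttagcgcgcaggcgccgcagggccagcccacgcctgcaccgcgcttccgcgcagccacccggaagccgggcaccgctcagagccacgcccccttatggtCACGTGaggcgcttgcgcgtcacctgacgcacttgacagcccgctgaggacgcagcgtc
CTSL: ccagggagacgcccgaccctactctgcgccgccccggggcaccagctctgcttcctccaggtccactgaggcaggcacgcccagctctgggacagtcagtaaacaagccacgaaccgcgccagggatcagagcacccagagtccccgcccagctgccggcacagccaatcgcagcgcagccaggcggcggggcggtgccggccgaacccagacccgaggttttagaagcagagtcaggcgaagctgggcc

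The E-box genes did not move as 1 group. MCOLN1 was called higher with siRNA-2 and with siRNA-1, CTSA with siRNA-2, and CTSD, LAMP1 and ATP6V0D1 with siRNA-1, all but MCOLN1 by 0.11 or less on the log2 scale. TBC1D5 was lower with each, and NEU1 had no usable interval. CTSL and ULK1, without a copy in the windows searched, rose more than MCOLN1 with siRNA-2 (0.89 and 0.81, against 0.52). With siRNA-1, CTSL rose more than MCOLN1 (0.72 against 0.44), while ULK1 rose less (0.39). CTSB, CTSS, ATP6V1A and ATP6V1H were among the genes without a window. Whether MiT/TFE factors act on any of these genes here was not tested.

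Among the 11 lysosomal enzymes tested, 5 rose with siRNA-2 (CTSL, CTSS, CTSZ, CTSB and CTSA) and none was called lower. With siRNA-1, 4 rose (CTSL, CTSS, CTSZ and CTSD) and 1, GUSB, fell. The shares over protein-coding genes were 35.1% higher and 30.5% lower with siRNA-2, and 35% and 28% with siRNA-1, so 4 of 11 higher is near that background. CTSL, a cysteine protease that cuts proteins in the lysosome, had 317.9, 299.4, 299.5 and 307.5 CPM with siRNA-2, 264.5, 291.4, 268.4 and 267.6 CPM with siRNA-1, and 172.1, 160.2, 167.4 and 161.5 CPM with scrambled siRNA. The lowest siRNA library was above the highest scrambled one. CTSL rose by 0.89 (SE 0.04, BH-adjusted p = 7.12e-16) with siRNA-2 and by 0.72 (SE 0.04, BH-adjusted p = 3.61e-14) with siRNA-1, and was higher with siRNA-2 than with siRNA-1 by 0.16 (BH-adjusted p = 0.00137). No other tested interval overlaps it.

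CTSS is a cysteine protease that trims the invariant chain of MHC class II in antigen-presenting cells. It had 43.3, 41.2, 40.4 and 43.6 CPM with siRNA-2, 37.3, 42.3, 42.2 and 41.5 CPM with siRNA-1, and 25.3, 21.3, 23.4 and 22.5 CPM with scrambled siRNA. The siRNA groups overlapped each other and neither overlapped the scrambled group. CTSS rose by 0.87 (SE 0.05, BH-adjusted p = 6.84e-13) with siRNA-2 and by 0.82 (SE 0.05, BH-adjusted p = 2.4e-12) with siRNA-1. The difference between the siRNAs was 0.05 (95% interval -0.06 to 0.15, BH-adjusted p = 0.562). Its highest scrambled value lay in replicate 1, the library with the highest interferon-list sum of the scrambled group. The part of the interferon response in the level of CTSS was not tested. Myeloid markers, which mark cells rich in CTSS, summed to 205 to 228 CPM with siRNA-2, 222 to 224 CPM with siRNA-1 and 249 to 285 CPM with scrambled siRNA. Of the 7 myeloid markers tested, 1 was higher and 2 lower with siRNA-2, and 1 was higher and 3 lower with siRNA-1. The higher one, CD74, encodes the invariant chain itself. Most of that sum was CSF1R, at 152 to 174 CPM with siRNA-2, 167 to 184 CPM with siRNA-1 and 227 to 261 CPM with scrambled siRNA. CD14 reached at most 2.91 CPM and ITGAM at most 8.07 CPM in any library. All libraries are labelled as the A172 line, and whether any myeloid cells were present was not tested.

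CTSZ, a carboxypeptidase of the same family, had 494, 506, 492 and 498 CPM with siRNA-2, 508, 478, 485 and 541 CPM with siRNA-1, and 389, 388, 399 and 385 CPM with scrambled siRNA. It rose by 0.35 (SE 0.04, BH-adjusted p = 1.5e-08) with siRNA-2 and by 0.37 (SE 0.04, BH-adjusted p = 8e-09) with siRNA-1, with no overlap of either siRNA group with the scrambled one. NELFCD, whose interval shares 510 bases with it, had log2 fold changes of -0.40 with siRNA-2 and -0.29 with siRNA-1. CTSB, a cysteine protease abundant in glioma cells, had 1307, 1373, 1384 and 1362 CPM with siRNA-2, 1169, 1078, 1082 and 1184 CPM with siRNA-1, and 1153, 1147, 1156 and 1182 CPM with scrambled siRNA. Only the siRNA-2 group of CTSB stood apart, and it overlapped no other. CTSB rose by 0.23 (SE 0.04, BH-adjusted p = 1.21e-05) with siRNA-2, had a log2 fold change of -0.04 (BH-adjusted p = 0.397) with siRNA-1, and was higher with siRNA-2 than with siRNA-1 by 0.27 (BH-adjusted p = 4.52e-06).

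The remaining enzymes moved little. GUSB, beta-glucuronidase, averaged 136 ± 1.33 CPM with siRNA-2, 125 ± 7.66 CPM with siRNA-1 and 140 ± 2.42 CPM with scrambled siRNA (SD, n = 4), and fell by 0.16 (SE 0.04, BH-adjusted p = 0.00118) with siRNA-1. CTSA, which protects beta-galactosidase and sialidase from breakdown, rose by 0.09 (BH-adjusted p = 0.0392) with siRNA-2, a call lost under 15 of 20 alternatives. CTSD, the main aspartic protease of the lysosome, rose by 0.11 (BH-adjusted p = 0.0341) with siRNA-1, a call also lost under 15 of 20. Its siRNA-1 libraries (798 to 961 CPM) overlapped the scrambled ones (797 to 833 CPM). GLA, GLB1 and HEXA, which remove terminal sugars from glycolipids, and PSAP, the precursor of the saposins that help them, passed the test in neither comparison. Their log2 fold changes ranged from -0.07 to 0.07 with siRNA-2 and from -0.04 to 0.05 with siRNA-1. The GLA interval lies wholly inside that of RPL36A-HNRNPH2, so its reads are counted there too.

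**Figure D2:**
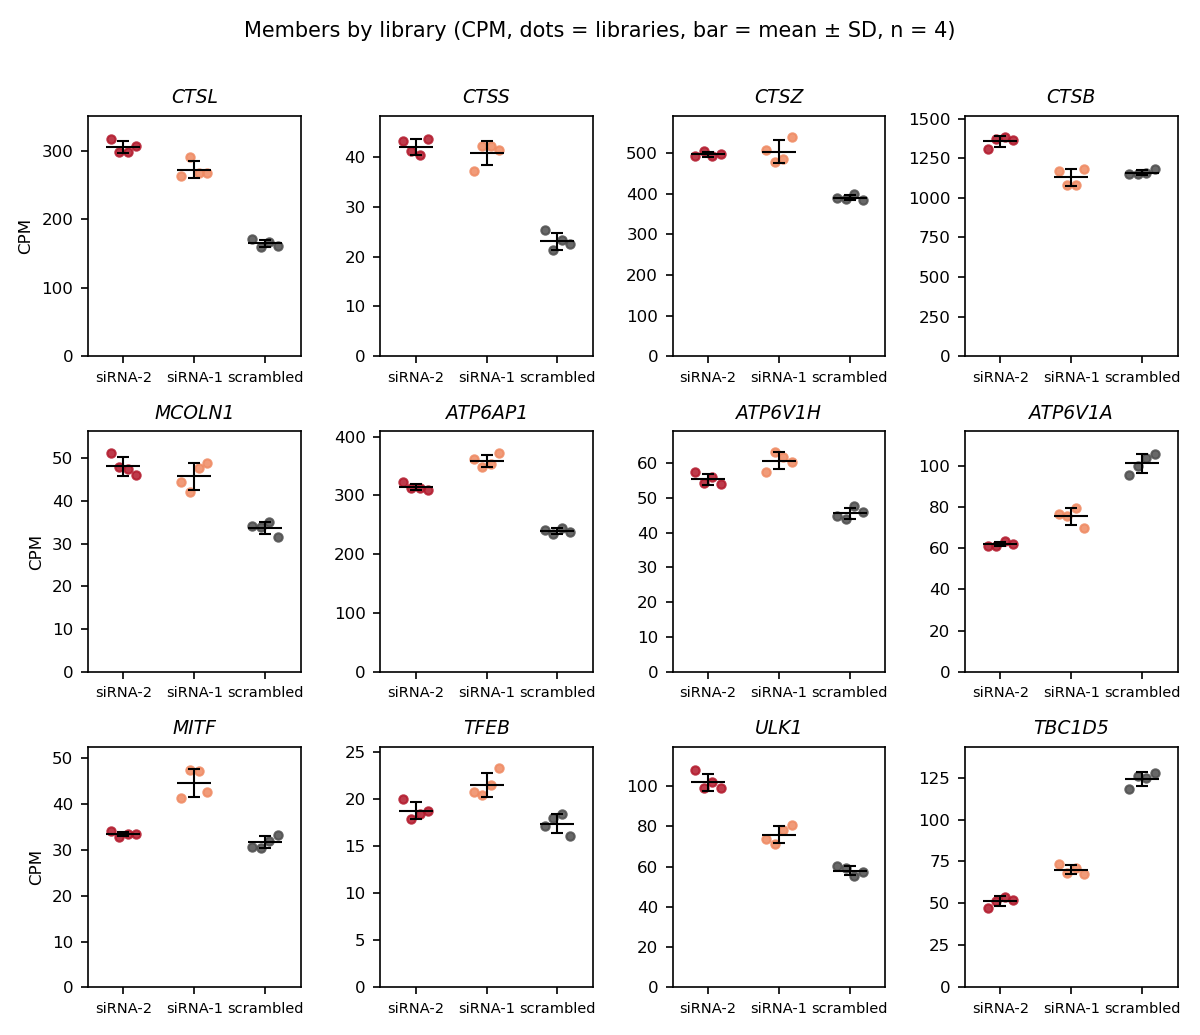
CPM (y axis, from 0) of 12 genes in each library (points), for siRNA-2, siRNA-1 and scrambled siRNA (x axis), with the mean and SD of 4 libraries. The mean of CTSL is 306 CPM with siRNA-2, 273 CPM with siRNA-1 and 165 CPM with scrambled siRNA, while the siRNA-2 values of MITF and TFEB overlap the scrambled ones.

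The 4 lysosomal membrane proteins tested were all called higher with siRNA-1, and 1 of them, MCOLN1, with siRNA-2. Of protein-coding genes, 35% were called higher with siRNA-1 and 35.1% with siRNA-2. MCOLN1, the TRPML1 channel that releases calcium from lysosomes, had 51.2, 47.9, 47.4 and 46 CPM with siRNA-2, 44.5, 42, 47.8 and 48.9 CPM with siRNA-1, and 34.1, 33.8, 35.1 and 31.6 CPM with scrambled siRNA. It rose by 0.52 (SE 0.05, BH-adjusted p = 3.16e-09) with siRNA-2 and by 0.44 (SE 0.05, BH-adjusted p = 5.09e-08) with siRNA-1, and both siRNA groups lay above the scrambled group. LOC105372261 covers 20.7% of its interval and had log2 fold changes of 0.12 with siRNA-2 and 0.04 with siRNA-1. SCARB2, an integral protein of the lysosomal membrane, averaged 220 ± 8.13 CPM with siRNA-2, 254 ± 4.15 CPM with siRNA-1 and 219 ± 5.45 CPM with scrambled siRNA (SD, n = 4). It rose by 0.22 (SE 0.04, BH-adjusted p = 1.08e-05) with siRNA-1. Compared directly, its siRNA-2 level was below its siRNA-1 level, with a log2 fold change of -0.21 (BH-adjusted p = 4.65e-05). LAMP2, needed for fusion of autophagosomes with lysosomes, rose by 0.21 (SE 0.05, BH-adjusted p = 0.00116) with siRNA-1, although 1 siRNA-1 library (57.4 CPM) lay below the highest scrambled one (57.6 CPM). LAMP1, an abundant glycoprotein of the lysosomal membrane, averaged 447 ± 9.2 CPM with siRNA-2, 469 ± 18.8 CPM with siRNA-1 and 440 ± 10.7 CPM with scrambled siRNA. Its call with siRNA-1 (0.09, BH-adjusted p = 0.0369) was lost under 16 of 20 alternatives.

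The proton pump of the lysosome, the V-ATPase, has a V0 sector in the membrane and a V1 sector that splits ATP. ATP6V1A, the catalytic subunit of V1, was the 1 pump gene of the 34 that fell. It had 61.2, 61.1, 63.4 and 62.1 CPM with siRNA-2, 76.5, 75.8, 79.6 and 70 CPM with siRNA-1, and 95.6, 99.9, 104 and 106 CPM with scrambled siRNA. The 3 groups did not overlap. ATP6V1A fell by 0.71 (SE 0.04, BH-adjusted p = 2.19e-13) with siRNA-2 and by 0.43 (SE 0.04, BH-adjusted p = 2.99e-09) with siRNA-1. Its interval shares 669 bases with NAA50, which holds more reads and had log2 fold changes of -0.61 with siRNA-2 and -0.42 with siRNA-1. How many reads fall in the shared bases is not known from the table.

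ATP6AP1, an accessory protein of pump assembly, moved the other way. It had 322, 312, 313 and 310 CPM with siRNA-2, 362, 348, 354 and 372 CPM with siRNA-1, and 241, 234, 245 and 237 CPM with scrambled siRNA, again with no overlap of the 3 groups. It rose by 0.39 (SE 0.03, BH-adjusted p = 2.87e-10) with siRNA-2 and by 0.58 (SE 0.03, BH-adjusted p = 2.16e-13) with siRNA-1. ATP6V1H, a regulatory V1 subunit, had 57.5, 54.2, 55.9 and 54.1 CPM with siRNA-2, 57.5, 63.1, 61.9 and 60.3 CPM with siRNA-1, and 44.7, 44, 47.7 and 46 CPM with scrambled siRNA. It rose by 0.28 (SE 0.04, BH-adjusted p = 2.68e-06) with siRNA-2 and by 0.41 (SE 0.04, BH-adjusted p = 6.36e-09) with siRNA-1. ATP6V0D1, a V0 subunit, had 64.3 to 70.8 CPM with siRNA-2, 68.4 to 74.4 CPM with siRNA-1 and 63.3 to 69.3 CPM with scrambled siRNA. Its call with siRNA-1 (0.11, BH-adjusted p = 0.0342) was lost under 14 of 20 alternatives, and HSD11B2 covers 41.6% of its interval.

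The other 13 pump genes, from a list of V-ATPase subunits, also held higher and lower genes. With siRNA-2, 7 were higher and 5 lower, against 35.1% and 30.5% of protein-coding genes. With siRNA-1, 8 were higher and 1 lower, against 35% and 28%. With siRNA-1, 2 were lower without scrambled replicate 2 or siRNA-1 replicate 2, and 3 over protein-coding rows only. The proteolipid genes ATP6V0B and ATP6V0C, which form the rotor in the membrane, rose with each siRNA. ATP6V0B rose by 0.34 (SE 0.04, BH-adjusted p = 3.42e-08) with siRNA-2 and by 0.49 with siRNA-1, and ATP6V0C by 0.37 (SE 0.05, BH-adjusted p = 1.04e-06) with siRNA-2 and by 0.46 with siRNA-1. ATP6V1B2, which pairs with ATP6V1A in the catalytic ring, fell by 0.26 (SE 0.03, BH-adjusted p = 4.55e-07) with siRNA-2 and stood at -0.04 (BH-adjusted p = 0.363) with siRNA-1. ATP6V0E2 fell by 0.21 (BH-adjusted p = 0.000516) with siRNA-2 and rose by 0.23 (BH-adjusted p = 0.000163) with siRNA-1. The siRNAs were also compared directly over the pump. Of all 17 pump genes, 12 were lower and 1 higher with siRNA-2 than with siRNA-1. Over all intervals the shares were 16.8% lower and 15.8% higher, and over protein-coding genes 22.6% and 18.5%. Without the 2 libraries of high ribosomal RNA share, 7 were lower and 1 higher, and without siRNA-1 replicate 2, 8 were lower. The median difference of the 17 was -0.15.

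**Figure D3:**
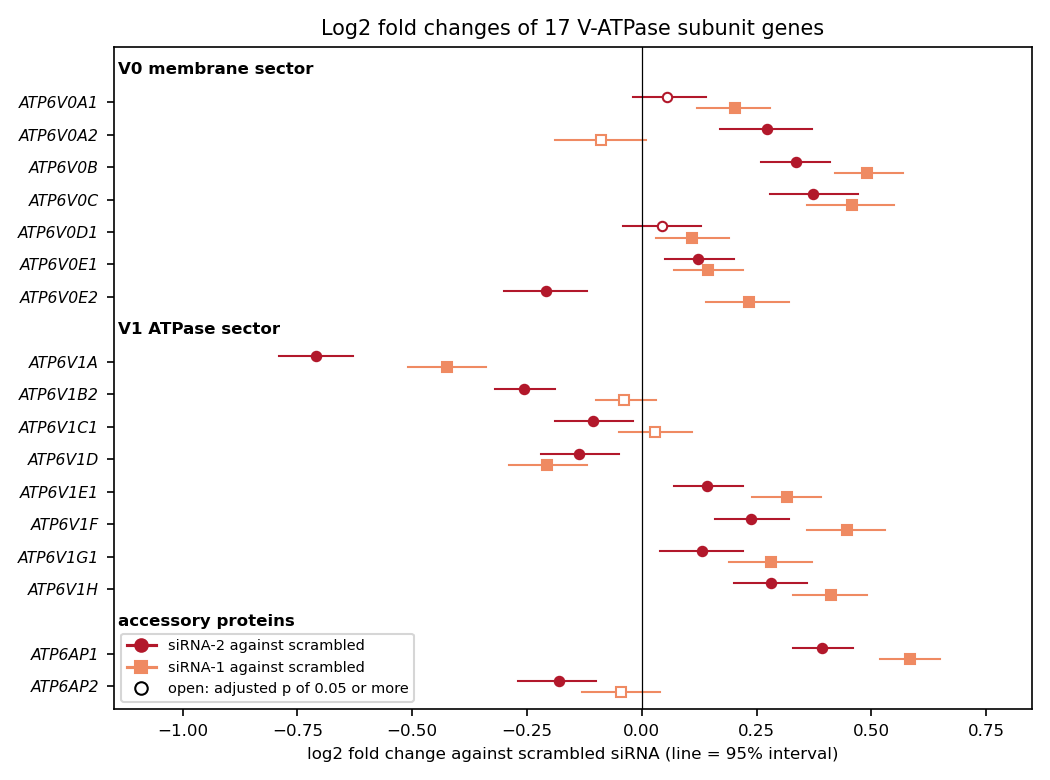
Log2 fold changes (x axis) of 17 V-ATPase genes (y axis), by sector, for siRNA-2 (circles) and siRNA-1 (squares) against scrambled siRNA, with 95% intervals. Open symbols have an adjusted p of 0.05 or more. ATP6V1A lies at -0.71 with siRNA-2 and -0.43 with siRNA-1, and ATP6AP1 at 0.39 with siRNA-2 and 0.58 with siRNA-1.

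Of the autophagy initiation genes, ULK1 rose with each siRNA. ULK1, the kinase that starts autophagosome formation, had 108, 98.9, 102 and 99.1 CPM with siRNA-2, 73.6, 71.3, 78.1 and 80.7 CPM with siRNA-1, and 60.3, 59.3, 55.2 and 57.4 CPM with scrambled siRNA. The 3 groups did not overlap. ULK1 rose by 0.81 (SE 0.04, BH-adjusted p = 3.87e-14) with siRNA-2 and by 0.39 (SE 0.04, BH-adjusted p = 3.68e-08) with siRNA-1, and was higher with siRNA-2 than with siRNA-1 by 0.42 (SE 0.04, BH-adjusted p = 2.78e-08). BECN1, the beclin subunit of the lipid kinase complex, fell by 0.12 (SE 0.04, BH-adjusted p = 0.012) with siRNA-2, a call lost without siRNA-2 replicate 2 (-0.10, BH-adjusted p = 0.0595). Its log2 fold change with siRNA-1 was -0.05 (BH-adjusted p = 0.302). CNTD1 covers 20.9% of its interval and was at -0.09 with siRNA-2 and with siRNA-1. WIPI1, which binds the lipid made by that kinase, fell by 0.25 (SE 0.07, BH-adjusted p = 0.00543) with siRNA-2, but its interval lies wholly inside that of PRKAR1A and 84.8% of it inside ARSG, so the reads cannot be given to WIPI1 alone. UVRAG, a partner of beclin, was called in neither comparison, at 0.08 with siRNA-2 and 0.10 with siRNA-1.

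The conjugation genes attach ATG12 to ATG5 and the LC3 family to lipid. Of 5 tested, 3 fell with siRNA-2, and 2 fell and 1 rose with siRNA-1. Of protein-coding genes, 30.5% were lower with siRNA-2, and 28% were lower and 35% higher with siRNA-1. ATG12 had 40, 43.7, 42.8 and 42.2 CPM with siRNA-2, 39.6, 45.4, 38.1 and 40.5 CPM with siRNA-1, and 49.8, 45.7, 51.6 and 53.2 CPM with scrambled siRNA. It fell by 0.25 (SE 0.05, BH-adjusted p = 0.000296) with siRNA-2 and by 0.29 (SE 0.05, BH-adjusted p = 5.22e-05) with siRNA-1. Its interval shares 246 bases with AP3S1, which had log2 fold changes of -0.32 with siRNA-2 and -0.37 with siRNA-1. ATG5, its conjugation partner, had 30.2, 30.5, 31.2 and 30.3 CPM with siRNA-2, 25, 28.6, 29.1 and 28.9 CPM with siRNA-1, and 32.8, 31.9, 34.4 and 34.7 CPM with scrambled siRNA. It fell by 0.13 (SE 0.05, BH-adjusted p = 0.0301) with siRNA-2 and by 0.26 (SE 0.05, BH-adjusted p = 9.73e-05) with siRNA-1, and the siRNA-2 call was lost under 4 of 20 alternatives. MAP1LC3B, the LC3 protein that coats autophagosomes, had 70.9, 72.2, 74.6 and 72.3 CPM with siRNA-2, 80.1, 84.4, 80.6 and 78.3 CPM with siRNA-1, and 80.3, 82.3, 89.4 and 89.1 CPM with scrambled siRNA. It fell by 0.23 (SE 0.04, BH-adjusted p = 1.89e-05) with siRNA-2, where the groups did not overlap, and stood at -0.08 (BH-adjusted p = 0.111) with siRNA-1, called under 6 of 20 alternatives. ATG7, the activating enzyme of both conjugations, rose by 0.20 (SE 0.04, BH-adjusted p = 0.0002) with siRNA-1 and was at 0.00 (BH-adjusted p = 0.965) with siRNA-2. VGLL4 shares 3% of its interval, holds 87.6% as many reads, and had log2 fold changes of 0.13 with siRNA-2 and 0.42 with siRNA-1. GABARAPL1, an LC3 relative, was at -0.02 with siRNA-2 and 0.05 with siRNA-1 and passed in neither.

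TBC1D5 changed most of the 32 genes in both comparisons. It encodes a GTPase-activating protein for RAB7 that binds retromer and is known to switch between endosomal and autophagic cargo. TBC1D5 had 47.2, 51.6, 54.1 and 52.2 CPM with siRNA-2, 73.4, 68.3, 71 and 67.6 CPM with siRNA-1, and 118, 126, 125 and 128 CPM with scrambled siRNA. The 3 groups were apart, with siRNA-2 lowest. TBC1D5 fell by 1.28 (SE 0.04, BH-adjusted p = 9.11e-18) with siRNA-2 and by 0.83 (SE 0.04, BH-adjusted p = 2.03e-14) with siRNA-1. Compared directly, siRNA-2 was below siRNA-1, with a log2 fold change of -0.45 (SE 0.04, BH-adjusted p = 1.12e-08). Its interval, chr3:17157162-17742739 in the table's coordinates, overlaps no other tested interval.

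Set against each other directly, the siRNAs differed for 15 of the 32 genes, with 5 higher and 10 lower with siRNA-2 than with siRNA-1, against 15.8% and 16.8% of all intervals and 18.5% and 22.6% of protein-coding genes. Without overlap of the groups, 5 were above and 8 below, against 15.7% and 16.2% of all intervals. The higher ones were ULK1, CTSB, CTSL, ATG5 (0.13, BH-adjusted p = 0.0482) and GUSB (0.12, BH-adjusted p = 0.018). The lower ones were TBC1D5, MITF, ATP6V1A, SCARB2, TFEB, ATG7 (-0.20, BH-adjusted p = 0.000517), ATP6AP1 (-0.19, BH-adjusted p = 7.98e-05), MAP1LC3B (-0.16, BH-adjusted p = 0.00358), LAMP2 (-0.15, BH-adjusted p = 0.0264) and ATP6V1H (-0.13, BH-adjusted p = 0.0167). Of these, 10 calls held under all 20 alternatives, and those of TFEB, GUSB, LAMP2, ATP6V1H and ATG5 did not.

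Wider lists show which other genes of the pathway moved. Their counts stand beside a background of protein-coding genes in which 35.1% were higher and 30.5% lower with siRNA-2, and 35% higher and 28% lower with siRNA-1. Over all intervals it was 29.9% and 26.1% with siRNA-2, and 28.5% and 24.8% with siRNA-1. The median log2 fold change over all genes was 0.01 in both comparisons. Of 32 other lysosomal enzymes and cofactors, 17 were higher and 11 lower with siRNA-2, and 16 were higher and 13 lower with siRNA-1, with median log2 fold changes of 0.26 with siRNA-2 and 0.11 with siRNA-1. LGMN, the asparaginyl protease legumain, had 39.7, 36.8, 37.4 and 39.6 CPM with siRNA-2, 34.4, 35.8, 39.8 and 35.2 CPM with siRNA-1, and 17.2, 15.9, 18.8 and 18.7 CPM with scrambled siRNA. LGMN rose by 1.12 (SE 0.06, BH-adjusted p = 1.92e-14) with siRNA-2 and by 1.04 (SE 0.06, BH-adjusted p = 9.91e-14) with siRNA-1. CTSH, an aminopeptidase of the cathepsin family, averaged 12.9 ± 0.543 CPM with siRNA-2, 15.6 ± 0.484 CPM with siRNA-1 and 6.61 ± 0.464 CPM with scrambled siRNA (SD, n = 4), and rose by 0.97 with siRNA-2 and 1.24 with siRNA-1. SGSH, which breaks down heparan sulfate, rose by 0.89 with siRNA-2 and 0.60 with siRNA-1, but CARD14 covers 45.3% of its interval and had log2 fold changes of 0.89 with siRNA-2 and 0.76 with siRNA-1. IDS, another enzyme of heparan sulfate breakdown, fell by 0.72 (SE 0.04, BH-adjusted p = 2.1e-13) with siRNA-2 and by 0.49 (SE 0.04, BH-adjusted p = 2.98e-10) with siRNA-1. LIPA, the acid lipase, and AGA, which cleaves glycoproteins, rose with siRNA-2 and fell with siRNA-1. LIPA averaged 140 ± 6.97 CPM with siRNA-2, 91.4 ± 2.58 CPM with siRNA-1 and 116 ± 4.64 CPM with scrambled siRNA, and was higher with siRNA-2 than with siRNA-1 by 0.61 (SE 0.04, BH-adjusted p = 1.42e-11). The same difference for AGA was 0.69 (SE 0.06, BH-adjusted p = 6.13e-10).

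Of the genes that sort new enzymes to the lysosome, 4 of 9 were lower with siRNA-2 and most with siRNA-1. Enzymes are tagged with mannose 6-phosphate in the Golgi and bound by receptors that GGA adaptors load into vesicles. Of 9 such genes, 1 was higher and 4 lower with siRNA-2, and 0 were higher and 8 lower with siRNA-1. The median log2 fold change was -0.11 with siRNA-2 and -0.47 with siRNA-1. GGA2, an adaptor, had 56.7, 54.6, 55.8 and 54.9 CPM with siRNA-2, 32.2, 28.7, 30.4 and 29.7 CPM with siRNA-1, and 72.1, 71.1, 68.8 and 73 CPM with scrambled siRNA. It fell by 0.36 (SE 0.04, BH-adjusted p = 3.15e-08) with siRNA-2 and by 1.24 (SE 0.04, BH-adjusted p = 1.23e-17) with siRNA-1. M6PR, a receptor, averaged 77.3 ± 2.55 CPM with siRNA-2, 54.6 ± 1.19 CPM with siRNA-1 and 83.3 ± 1.17 CPM with scrambled siRNA (SD, n = 4). M6PR fell by 0.11 (BH-adjusted p = 0.0139) with siRNA-2 and by 0.61 (BH-adjusted p = 4.4e-13) with siRNA-1. Without siRNA-2 replicate 2 the siRNA-2 call was lost (-0.08, BH-adjusted p = 0.0712). PHC1, which shares 12.4% of its interval, had log2 fold changes of -0.33 with siRNA-2 and -0.63 with siRNA-1. For SORT1, a receptor that does not need the sugar tag, the siRNA-2 libraries were lowest, at 69.6 to 83 CPM, against 95.7 to 110 CPM with siRNA-1 and 144 to 153 CPM with scrambled siRNA. GNPTAB, the enzyme that starts the tag, fell by 0.65 (SE 0.05, BH-adjusted p = 8.85e-11) with siRNA-2 and by 0.47 (SE 0.05, BH-adjusted p = 3.45e-08) with siRNA-1, and CHPT1, which covers 8.3% of its interval and holds more reads, had log2 fold changes of -0.40 with siRNA-2 and -0.29 with siRNA-1. NAGPA, which uncovers the tag, was the gene called higher with siRNA-2 (0.33, BH-adjusted p = 2.95e-06), and it fell by 0.19 with siRNA-1. Over the alternatives, 3 to 5 of the 9 were lower with siRNA-2 and 7 or 8 with siRNA-1.

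**Figure D4:**
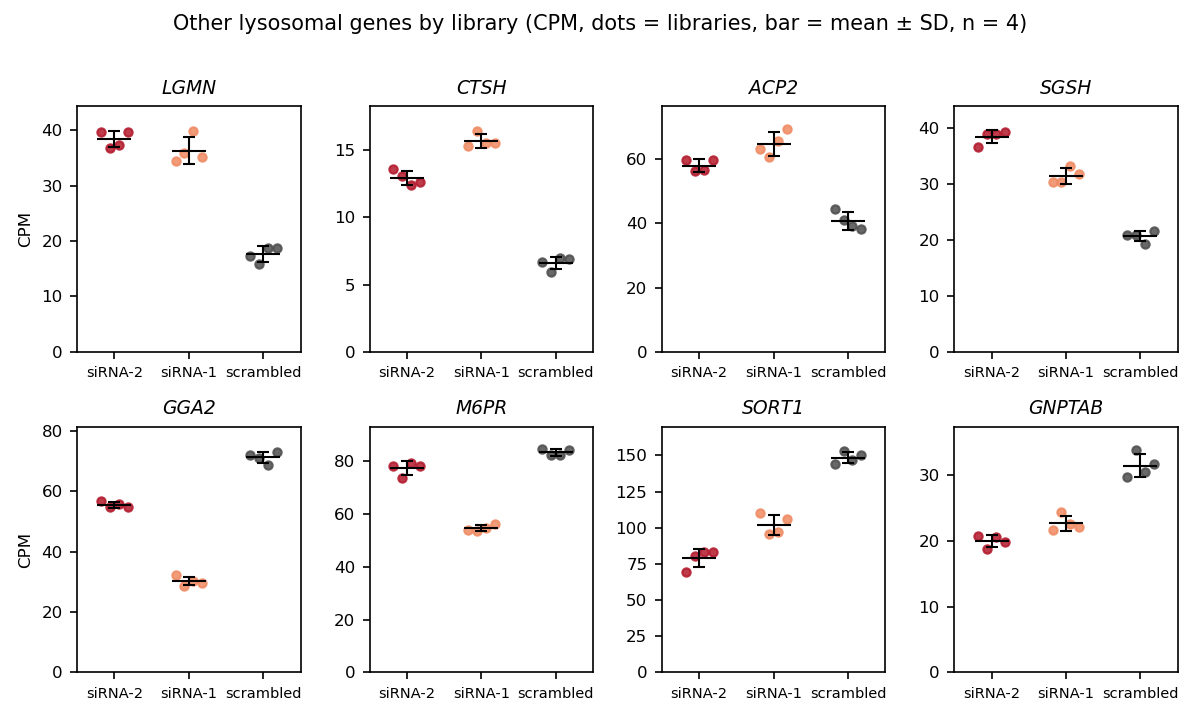
CPM (y axis, from 0) of 4 other lysosomal enzymes (top) and 4 sorting genes (bottom) in each library (points), for siRNA-2, siRNA-1 and scrambled siRNA (x axis), with the mean and SD of 4 libraries. GGA2 lies at 54.6 to 56.7 CPM with siRNA-2, 28.7 to 32.2 CPM with siRNA-1 and 68.8 to 73 CPM with scrambled siRNA.

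Other lysosomal membrane proteins were split, with 7 of 20 higher and 9 lower with siRNA-2, and 7 higher and 8 lower with siRNA-1, with median log2 fold changes of -0.04 with siRNA-2 and -0.09 with siRNA-1. With siRNA-1, 12 were lower without siRNA-2 replicate 1. LAMP3, an interferon-inducible relative of LAMP1, had 7.74, 6.59, 6.56 and 7.76 CPM with siRNA-2, 4.13, 5.48, 5.81 and 4.27 CPM with siRNA-1, and 0.756, 0.452, 0.471 and 0.361 CPM with scrambled siRNA. It rose by 3.81 (SE 0.17, BH-adjusted p = 3.08e-15) with siRNA-2, and its highest scrambled value was in replicate 1, the highest scrambled library of the interferon list. The part of the interferon response in the level of LAMP3 was not tested. NPC1, which exports cholesterol from lysosomes, rose by 0.65 (SE 0.04, BH-adjusted p = 2.05e-12) with siRNA-2 and by 0.47 (SE 0.04, BH-adjusted p = 1.1e-09) with siRNA-1, but RMC1 covers 31.9% of its interval and had log2 fold changes of 0.65 with siRNA-2 and 0.60 with siRNA-1. TPCN1, an ion channel of the endolysosome, fell by 0.88 (SE 0.06, BH-adjusted p = 6.9e-12) with siRNA-2 and by 0.32 (SE 0.06, BH-adjusted p = 8.55e-05) with siRNA-1.

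Of 18 genes of mTORC1 signalling at the lysosome, 8 were higher and 5 lower with siRNA-2, and 9 were higher and 4 lower with siRNA-1, with median log2 fold changes of 0.06 with siRNA-2 and 0.08 with siRNA-1. RPTOR, the subunit that brings substrates to mTORC1, had 94.6, 90.2, 94.8 and 90.5 CPM with siRNA-2, 96, 98.4, 106 and 108 CPM with siRNA-1, and 59.4, 59.2, 59 and 60 CPM with scrambled siRNA. It rose by 0.64 (SE 0.04, BH-adjusted p = 5.41e-13) with siRNA-2 and by 0.78 (SE 0.04, BH-adjusted p = 1.59e-14) with siRNA-1. RRAGD, a Rag GTPase, fell by 0.63 (SE 0.05, BH-adjusted p = 6.94e-11) with siRNA-2 and by 0.55 (SE 0.05, BH-adjusted p = 9.93e-10) with siRNA-1. FLCN, folliculin, which acts on the Rag GTPases, rose by 0.37 with siRNA-2 and 0.30 with siRNA-1.

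In autophagy beyond the 34 genes, the initiation and membrane list had 8 of 19 higher and 6 lower with siRNA-2, and 8 higher and 5 lower with siRNA-1, with median log2 fold changes of -0.03 with siRNA-2 and 0.02 with siRNA-1. ATG101, a partner of the ULK1 complex, rose by 0.47 (SE 0.05, BH-adjusted p = 3.74e-09) with siRNA-2 and 0.54 (SE 0.05, BH-adjusted p = 4.14e-10) with siRNA-1. RB1CC1, the scaffold of that complex, fell by 0.51 (SE 0.05, BH-adjusted p = 1.69e-09) with siRNA-2 and 0.26 (SE 0.05, BH-adjusted p = 4.88e-05) with siRNA-1. Of 11 other conjugation genes, 2 were higher and 5 lower with siRNA-2, and 4 were higher and 4 lower with siRNA-1, with median log2 fold changes of -0.05 with siRNA-2 and -0.04 with siRNA-1. Under 17 of 20 alternatives, among them leaving out any 1 scrambled library, 1 was higher with siRNA-2. ATG10, the enzyme that links ATG12 to ATG5, averaged 8.83 ± 0.18 CPM with siRNA-2, 9.65 ± 0.527 CPM with siRNA-1 and 16 ± 1.35 CPM with scrambled siRNA (SD, n = 4), and fell by 0.86 (SE 0.07, BH-adjusted p = 6.09e-11) with siRNA-2 and 0.73 (SE 0.07, BH-adjusted p = 1.38e-09) with siRNA-1. Of 10 cargo receptors, 5 were higher and 3 lower with siRNA-2, and 6 were higher and 2 lower with siRNA-1, with median log2 fold changes of 0.17 with siRNA-2 and 0.18 with siRNA-1. With siRNA-1 the lower count was 0 without siRNA-1 replicate 3, and 1 without siRNA-1 replicate 1, siRNA-2 replicate 2 or 4, or scrambled replicate 2 or 4. Among receptors of mitophagy, BNIP3L fell by 0.59 with siRNA-2 while BNIP3, whose interval PPP2R2D covers to 38%, rose by 0.32. With siRNA-1, over the settings run, BNIP3L lay at -0.19 to -0.10, not called in 2 of them, and BNIP3 at 0.64 to 0.73. SQSTM1, the receptor p62, had no usable interval. Of 15 fusion, HOPS and retromer genes, 4 were higher and 6 lower with siRNA-2, and 4 were higher and 8 lower with siRNA-1, with median log2 fold changes of -0.10 with siRNA-2 and -0.14 with siRNA-1. VPS41, a HOPS subunit, fell by 0.51 (SE 0.04, BH-adjusted p = 1.21e-11) with siRNA-2 and 0.31 (SE 0.04, BH-adjusted p = 1.08e-07) with siRNA-1. VPS18, another, rose by 0.42 with siRNA-2 and 0.48 with siRNA-1.

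**Figure D5:**
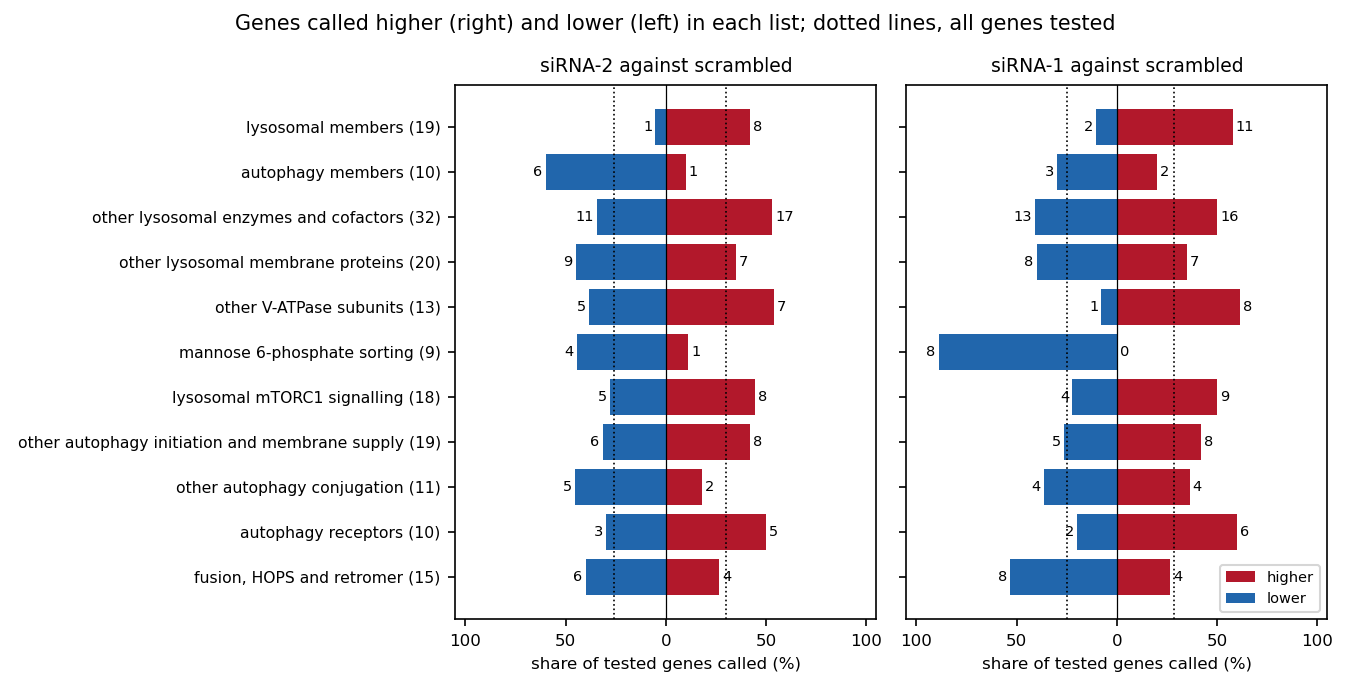
Share of tested genes called higher (right) and lower (left) in each list (x axis, percent), for siRNA-2 and siRNA-1 against scrambled siRNA, with the number of genes at each bar and the list size in parentheses. Dotted lines mark all intervals tested, 29.9% and 26.1% with siRNA-2 and 28.5% and 24.8% with siRNA-1. The bar of the sorting genes reaches farthest left with siRNA-1, with 8 of 9 lower.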

How the data were processed

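RNA-seq of 12 A172 libraries was analysed from whole-number read counts per genomic interval, deposited by the authors without normalization. Salmon and hg38 are named in the submitters' processing notes, but the tool behind the interval counts is not stated there. An interval spans a whole gene, and overlapping intervals share reads on either strand: in 2750 same-strand and 3721 opposite-strand nested pairs (inner one with 120 reads or more) the inner count never exceeded the outer. Of 49731 intervals, 962 ultraconserved or random regions and 4396 gene intervals were left out. These were 2006 reaching over 100 kb past the gene of that name or lying elsewhere, 70 over 1 Mb with no match, 28 named by a number, 1049 older names, 31 of ribosomal RNA, and 1212 duplicates of an overlapping interval. Of the 44373 kept, 11199 had no match in the reference. Among list genes, CTSO, SQSTM1, PLEKHM1, VPS11, PTPRC and AIF1 had no usable interval.

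The test was edgeR 4.0.16 in R 4.3.3, with TMM, filterByExpr (counts of 10 per library and 15 in total as minimum), and a quasi-likelihood fit, robust, in which the 12 libraries share 1 spread and group is the sole factor. Tests were two-sided and Benjamini-Hochberg (BH) adjusted over 24953 intervals, with 0.05 as threshold. SE is the absolute log2 fold change over the square root of F, and intervals are at 95%. Every log2 fold change compares 4 libraries with 4. No pair of replicates agreed within sampling noise.

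All 34 genes are named. From each other list the 3 genes of smallest p past the threshold in a comparison could be named, and the text gives part of them. Members and lists were chosen with earlier results of these data known. On simulated counts of siRNA-1 against scrambled (24279 genes, 50 changed at each size), edgeR found 25 at 1.2-fold, 44 at 1.5-fold, 49 at 2-fold and 50 at 4-fold. It also called 9 of 24079 genes left as they were. Alternatives were DESeq2 1.42.0 and its factors in edgeR, no filter, a 1 CPM filter (4 libraries), fits of only the 2 groups at hand, protein-coding rows alone, a replicate block, leaving out each library, and members free of overlap. Leaving out both libraries of high ribosomal RNA share was chosen after seeing the data. Tables were made in Python 3.11.15 with pandas 2.3.3 and numpy 2.4.6, and figures with matplotlib 3.10.9.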

Additional observations from a re-analysis of the deposited data

Results flagged for a closer look

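Each gene was checked in each group for 1 library far from the other 3, with a gap to its nearest neighbour that is large for the range of the group (Dixon's test at 95%). Of 96 groups checked, 5 met this, against 4.8 that chance gives. CTSL was at 291 CPM in siRNA-1 replicate 2, above the other siRNA-1 libraries. CTSS was at 37.3 CPM in siRNA-1 replicate 1, below the others of its group and still above all scrambled libraries. In the same library ATG5 was low at 25 CPM and ATG7 high at 107 CPM. TFE3 was at 134 CPM in siRNA-2 replicate 4, above the others.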

How the results depend on the processing

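Of the calls against scrambled siRNA, 13 of 16 with siRNA-2 and 17 of 21 with siRNA-1 held under all 20 settings, as did 10 of 15 between the siRNAs. Those lost in some setting were CTSA, BECN1 and ATG5 with siRNA-2, TFE3, CTSD, LAMP1 and ATP6V0D1 with siRNA-1, and TFEB, GUSB, LAMP2, ATP6V1H and ATG5 between them; the cause was not tested.

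With protein-coding rows only, which tests 15018 intervals, 4964 genes were higher with siRNA-2 and 4713 with siRNA-1, and 5 autophagy factors were lower with siRNA-1. Members free of overlap, which are fewer, gave 4 lysosomal genes higher, 0 lower and 2 autophagy factors lower with siRNA-2. With siRNA-1 they gave 6 lysosomal genes higher, 1 lower, and 1 autophagy factor in each direction. Between the siRNAs they gave 3 lysosomal genes lower, 1 autophagy factor higher and 1 transcription factor lower. Between the siRNAs, 1 autophagy factor was higher with DESeq2's factors, DESeq2, no filter or without both libraries of high ribosomal RNA share. Without both libraries, 3 lysosomal genes and 1 transcription factor were lower. The cause of these shifts was not tested.

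Leaving out 1 library at a time gave 4 to 6 autophagy factors lower with siRNA-2 and 3 to 5 with siRNA-1. Lysosomal genes higher numbered 7 to 8 with siRNA-2 and 8 to 11 with siRNA-1. Between the siRNAs it gave 1 to 2 autophagy factors higher, 1 to 2 transcription factors lower and 3 to 5 lysosomal genes lower.

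The signs that turned all belong to uncalled changes near 0. With siRNA-2, SCARB2 was at -0.01 with DESeq2's factors, DESeq2 and without both libraries, at -0.02 with only the groups compared or protein-coding rows, at 0.00 with the 1 CPM filter, and at -0.02 to 0.01 leaving out libraries. ATG7 was at -0.02 with DESeq2's factors, DESeq2 and only the groups compared, -0.03 with protein-coding rows, -0.01 with the 1 CPM filter, 0.00 with no filter, -0.04 without both libraries, and -0.03 to 0.01 leaving out libraries. LAMP1 was at 0.00 with only the groups compared, -0.01 with protein-coding rows and 0.00 to 0.03 leaving out libraries, and GABARAPL1 at -0.07 to 0.02. With siRNA-1, HEXA was at 0.00 without both libraries and -0.04 to 0.03 leaving out libraries, GLA at -0.11 to 0.01 and GABARAPL1 at -0.01 to 0.08. Between the siRNAs, TFE3 and PSAP were at 0.00 with no filter or only the groups compared, at 0.01 with the 1 CPM filter or protein-coding rows, and at -0.02 to 0.01 and -0.03 to 0.01 leaving out libraries. Without both libraries CTSA was at -0.01 and ATG12 at 0.00. Leaving out libraries put CTSA at -0.02 to 0.04, CTSD at -0.07 to 0.02, CTSZ at -0.03 to 0.02 and UVRAG at -0.05 to 0.00.

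The labels do not say whether a replicate number marks a shared culture. Deviations from the group means correlated at -0.0493 to 0.0409 between libraries of the same number in different groups. With a replicate block 7457 genes were higher and 6478 lower with siRNA-2, 7066 and 6150 with siRNA-1, and 3877 and 4156 between the siRNAs. The alternative of keeping the longest row of a symbol gave no value, since each gene had 1 row. On simulated counts the test found 25 of 50 changes of 1.2-fold with siRNA-1. Far fewer genes were changed there than the 28.5% higher and 24.8% lower called in the data, so that share cannot be carried over. For an uncalled gene the 95% interval gives the range of its log2 fold change. With siRNA-1 it was -0.09 to 0.05 for GLB1, -0.07 to 0.17 for GABARAPL1 and -0.26 to 0.02 for WIPI1.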
